A study of Homo sapiens with 12 samples.

Results

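The mitochondrial genome carries its own set of protein-coding genes, and 10 of them are described here in prostate cancer cells in which choline kinase alpha (CHKA) was knocked down. The 10 genes were taken by name, without reference to how they moved: MT-ND1, MT-ND2, MT-ND3, MT-ND4 and MT-ND5, MT-CYB, MT-CO1, MT-CO2 and MT-CO3, and MT-ATP6. They are 10 of the 13 protein-coding genes of the mitochondrial genome and 10 of the 54127 genes in the count files. All 10 passed the expression filter that left 14501 genes to be tested.

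Mitochondrial DNA is copied into long RNAs that run over many genes from both strands. These are cut at the transfer RNAs that lie between the genes, which frees the messenger and ribosomal RNAs, and most of the messengers then receive a short poly(A) tail inside the organelle. The messengers encode the membrane core of the respiratory chain. ND proteins belong to complex I, cytochrome b (MT-CYB) to complex III, CO proteins to cytochrome c oxidase (complex IV), and MT-ATP6, like its neighbour MT-ATP8, to ATP synthase. The subunits not encoded there, and every protein that copies, transcribes, cuts or translates mitochondrial DNA, come from nuclear genes. CHKA is the first enzyme of the Kennedy pathway, which makes phosphatidylcholine, the main phospholipid of cell membranes.

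The cells were C4-2, an androgen-independent human prostate cancer line derived from LNCaP, grown in RPMI medium with 10% fetal bovine serum. They were reverse transfected with 50 nM of an siRNA pool, directed against CHKA (siCHKA, 6 samples) or nontargeting (siNT, 6 samples), so both groups had received siRNA and lipid reagent and no group was left untreated. Polyadenylated RNA was sequenced as single-end reads of 40 bases. The labels number the samples 1 to 6 in each group and do not say whether they are separate cultures, so p-values measure the spread between these samples, which may be partly technical. The study's text speaks of biological triplicates for the knockdown in one place and of 6 biological replicates in another. If some samples share a culture, n = 6 overstates the independent samples and the p-values are too small. A single cell line was used, and no time after transfection is given in the labels.

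In GRCh38 the 10 genes lie on the same strand of the mitochondrial chromosome (chrM) and none has an intron. MT-ND1 (ENSG00000198888) occupies bases 3307 to 4262, MT-ND2 (ENSG00000198763) 4470 to 5511, MT-CO1 (ENSG00000198804) 5904 to 7445 and MT-CO2 (ENSG00000198712) 7586 to 8269. MT-ATP6 (ENSG00000198899) follows at 8527 to 9207 and MT-CO3 (ENSG00000198938) at 9207 to 9990. MT-ND3 (ENSG00000198840) lies at 10059 to 10404, MT-ND4 (ENSG00000198886) at 10760 to 12137, MT-ND5 (ENSG00000198786) at 12337 to 14148 and MT-CYB (ENSG00000198727) at 14747 to 15887. MT-ATP6 shares 47 of its 681 bases with its neighbours MT-ATP8 and MT-CO3, and MT-ND4 shares 7 bases with MT-ND4L. A read that lies on both genes can be set aside as ambiguous by such counting.

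Several of these genes rely on the poly(A) tail to finish the stop codon. In 6 of the 10 the genome encodes only the first base or bases of the stop. In 5 of these (MT-ND2, MT-ND3, MT-ND4, MT-CO3 and MT-CYB) it encodes only a T, and in MT-ND1 it encodes TA. The last 24 bases of 6 genes are shown, read 5′ to 3′ on the coding strand from the GENCODE 44 transcripts (GRCh38), because they show which genes need the tail for a whole stop codon. The messengers of MT-ND5, MT-CO1 and MT-CO2 run on past the coding end shown. Capitals mark the part of the stop codon that the genome encodes.
MT-ND1: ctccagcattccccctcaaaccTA
MT-ND4: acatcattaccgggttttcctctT
MT-CYB: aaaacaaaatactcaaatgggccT
MT-ND5: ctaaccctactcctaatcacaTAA
MT-CO2: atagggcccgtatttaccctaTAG
MT-CO1: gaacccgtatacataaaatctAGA
MT-ND5 and MT-ATP6 end in a whole TAA, MT-CO2 in TAG and MT-CO1 in AGA, a stop in human mitochondria.

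Copies of mitochondrial DNA lie in the nuclear chromosomes, and a read that aligned to several places was not counted. For each gene the share of its 40-base windows with an exact copy on the nuclear chromosomes of GRCh38 was therefore found with BLAST. It was 59.5% for MT-CO1, 54.8% for MT-ATP6 and 49.5% for MT-ND2. It was 40% for MT-CO2, 38.3% for MT-CO3 and 29.7% for MT-ND1. The lowest shares were those of MT-ND4 (10.2%), MT-ND5 (8.52%), MT-CYB (3.45%) and MT-ND3 (0.651%). The copies of MT-ND2, MT-CO1, MT-CO2 and MT-ATP6 lie close together on chromosome 1, where the copy of MT-CO1 spans 631074 to 632616 and is 98.6% identical to it. With up to 2 mismatches allowed, the share of windows with a copy was 100% for MT-CO1 and MT-ATP6, 98.3% for MT-ND2 and 97.7% for MT-CO2. It was 80.1% for MT-ND4, 67.7% for MT-CO3, 50.7% for MT-ND5 and 41.3% for MT-ND1. MT-CYB (32.5%) and MT-ND3 (13.7%) had the lowest shares. The counted reads were aligned to GRCh37, whose nuclear copies were not searched. If these are the same as in GRCh38, exactly matching reads were counted only in the parts without an exact copy. How reads with mismatches were placed was not tested. Levels between genes depend on how these parts are taken into account. A comparison of the same gene between samples uses the same windows in every sample.

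Reads counted on genes ranged from 12158361 to 20670479 in siCHKA (median 18600973) and from 10685184 to 24246055 in siNT (median 16912852.5). Alignments that were not unique made up 26.1 to 30.6% of all reads and alignments tallied in the counting. Whether a read with several alignments entered that tally more than once is not given in the sources used here. The siCHKA samples fell into 2 sets. The chi-square per degree of freedom over genes was 2.39 to 4.09 between pairs of replicates 2, 4 and 6, 4.05 to 9.50 between pairs of replicates 1, 3 and 5, and 12.5 to 24.9 between the sets. Pairs of siNT samples differed over as wide a range, 2.51 to 30.9. Each siCHKA set was therefore also compared with all siNT samples. The knockdown was seen in all 6 samples. In counts-per-million (CPM, after TMM normalization), the siNT mean of CHKA (ENSG00000110721, GRCh38 chromosome 11, 68052859 to 68121444, minus strand) was 40.7 ± 2.54 and the siCHKA mean 2.75 ± 1.03 (SD, n = 6 each). The log2 fold change was −3.88 (SE 0.14, adjusted p = 5.90e-13, edgeR's quasi-likelihood test with Benjamini-Hochberg adjustment over all genes tested). All 10 prostate epithelial markers, including KLK3 and FOLH1, were measured at 80.7 CPM or more in each sample. The basal cell markers KRT5 and TP63 and the T cell marker CD3E had 1, 3 and 0 reads over all 12 samples. The 9 measured markers of other cell types summed to 29.2 to 37.0 CPM in siCHKA and 18.0 to 26.2 CPM in siNT, most of it COL1A1 (23.8 CPM or more in each siCHKA sample and 18.2 CPM or less in each siNT sample), and their part in any result was not tested.

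The share of gene reads that fell on the 10 mitochondrial messengers varied as much within a group as between the groups. In siCHKA it was lowest at 0.657%, with a median of 0.813% and a highest value of 1.63%. In siNT it was lowest at 0.423%, with a median of 0.706% and a highest value of 2.11%. The groups overlapped: the siNT samples held both the lowest and the highest of the 12 values. The 2 samples that stood highest were siNT replicate 3 (95% Wilson interval 2.10 to 2.12%) and siCHKA replicate 5 (1.62 to 1.64%), followed by siNT replicate 1 at 1.32%. The lowest were siNT replicate 6 (0.420 to 0.427%) and siNT replicate 5 at 0.459%. These intervals cover counting error only, and the differences between samples of a group were far wider than they are. Means were 0.914 ± 0.359% after siCHKA and 0.955 ± 0.651% after siNT (SD, n = 6), and the highest siNT sample was 4.98 times the lowest, against 2.48 times in siCHKA. The mean of the log2 share was instead higher in siCHKA, by 0.11, so the sign of the difference depended on the averaging. In RNA from bulk samples, less mitochondrial RNA per cell and fewer cells rich in it cannot be told apart.

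**Figure D1:**
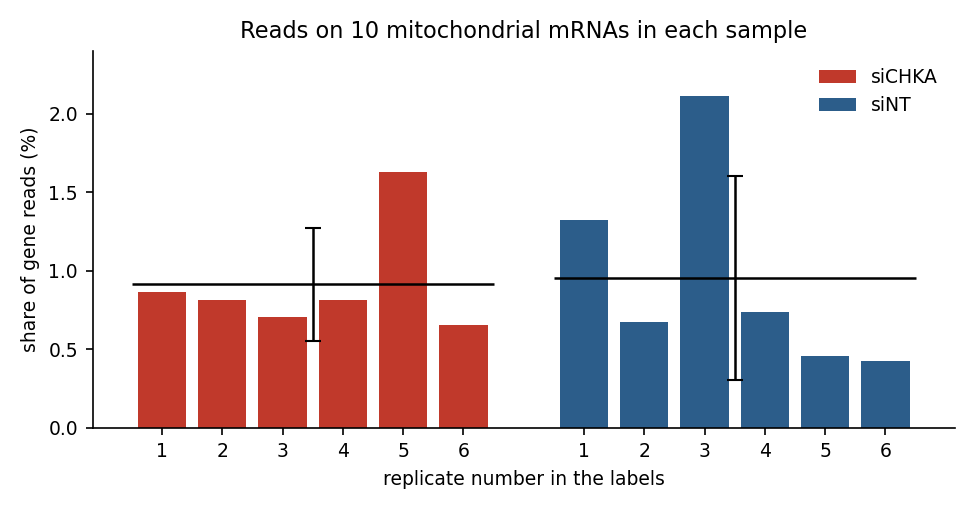
Share of all gene reads (%, y axis) on the 10 mitochondrial messengers in each sample, by replicate number (x axis); lines give the mean of 6 samples and error bars the SD. The siNT samples run from 0.423 to 2.11% and span all siCHKA samples (0.657 to 1.63%), of which replicate 5 stands highest.

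Each gene followed the same course over the samples. MT-ND4, a proton-pumping core subunit of complex I, had the most reads. Its level in siCHKA was 1659.8 CPM at the lowest, 2115 at the median and 3679.8 at the highest, and in siNT 1240.2, 1948 and 5494 CPM. Thus the siNT range enclosed the siCHKA range, with siNT replicate 3 at the top. The other complex I genes did likewise. MT-ND1, which helps to form the ubiquinone site, ran from 351 to 757 CPM in siCHKA (median 432) and from 226 to 1181 CPM in siNT (median 398). MT-ND2, a pumping subunit, ran from 332 to 767 CPM (median 403) in siCHKA and from 197 to 1157 CPM (median 388) in siNT. In both genes the siCHKA median was the higher of the 2 medians while the siCHKA mean was the lower of the 2 means.

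MT-ND3 had the fewest reads of the 10. Its siCHKA samples lay at 90.0 CPM (lowest), 116 (median) and 293 (highest), and its siNT samples at 56.9, 96.1 and 427 CPM. The count behind the lowest of these values was 585 reads, so counting noise was small beside the spread. MT-ND5, another pumping subunit, ran from 381 to 1026 CPM in siCHKA (median 476) and from 377 to 1396 CPM in siNT (median 588). It was among the genes whose siNT median was the higher, and its ranges in the 2 groups started at nearly the same level.

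MT-CYB, which carries the b-type haems of complex III, was at 505 CPM at the lowest, 622 at the median and 1480.4 at the highest in siCHKA, and at 421, 734 and 2141 CPM in siNT. Its siCHKA replicate 5 stood apart from the next sample, which was at 648 CPM. Among the complex IV genes, MT-CO1, the catalytic subunit with the oxygen-binding site, ran from 1138 to 3573 CPM (median 1378) in siCHKA and from 797 to 4419.9 CPM (median 1391) in siNT. The medians of MT-CO1 thus lay close together within wide ranges. MT-CO2, which accepts electrons from cytochrome c, ran from 547 to 1332 CPM (median 671) and from 333 to 1914 CPM (median 563). MT-CO3, the third core subunit, ran from 751 to 2124 CPM (median 882) and from 504 to 3032 CPM (median 949.5). MT-ATP6, part of the proton channel of ATP synthase, ran from 338 to 940.1 CPM (median 427) in siCHKA and from 245 to 1353 CPM (median 439) in siNT. In all 10 genes the 2 groups overlapped, whereas the groups did not overlap in 40.6% of the genes tested.

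**Figure D2:**
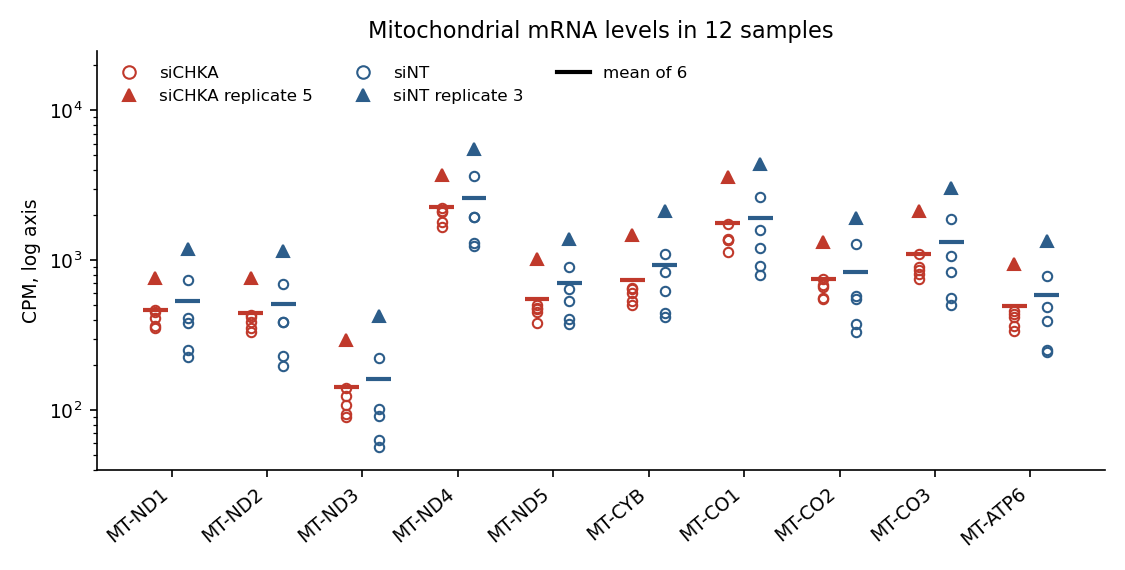
Level of each mitochondrial messenger (CPM, log y axis) in the 6 siCHKA and 6 siNT samples; bars give the mean of 6, and filled triangles mark siCHKA replicate 5 and siNT replicate 3. In each gene these samples are the highest of their group and the siNT samples span all siCHKA samples.

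None of the 10 messengers changed past the test. Of 10, 0 were called lower and 0 higher at an adjusted p of 0.05, against 62.2% of all genes tested (30.1% lower and 32.1% higher). At an unadjusted p of 0.05 edgeR also called 0 (65.4% of all genes), and DESeq2 called 0 at an adjusted p of 0.05 (61.6% of all genes). The log2 fold changes lay between −0.36 and −0.13 with a median of −0.19, beside a median of 0.04 over all 14501 genes. MT-ND5 had the estimate farthest from 0, at −0.36 (SE 0.29, 95% interval −0.98 to 0.25, adjusted p = 0.292 in edgeR). MT-CYB followed at −0.34 (SE 0.35, interval −1.08 to 0.41, adjusted p = 0.422 in edgeR). MT-CO1 had the estimate nearest to 0, at −0.13 (SE 0.37, interval −0.92 to 0.66, adjusted p = 0.782 in edgeR). For MT-ND4, with the most reads, it was −0.20 (SE 0.31, interval −0.85 to 0.46, adjusted p = 0.598 in edgeR).

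These intervals are wide. Their lower bounds ran from −1.10 to −0.85 and their upper bounds from 0.25 to 0.73 over the 10 genes, so for none of them was a fall of the size of the lower bound or a rise of the size of the upper bound separated from no change. The median SE of the 10 was 0.36 beside 0.08 over all genes tested. All 10 estimates were below 0 with TMM scaling, but the sign depended on the scaling and on single samples. When samples were scaled by total gene reads, which moved the median of all genes from 0.04 to 0.19, MT-CO1 was at 0.02 and the median of the 10 was −0.04. Without siNT replicate 3, 9 of the 10 estimates were above 0 and the median was 0.20, with 0 called (59.8% of all genes). Without siCHKA replicate 5, the median was −0.49 and MT-ND5 was called lower (log2 fold change −0.63, adjusted p = 0.0439 in edgeR), against 29.7% of all genes called lower in that fit. The 2 sets of siCHKA samples gave a median of −0.003 (replicates 1, 3 and 5) and −0.57 (replicates 2, 4 and 6) against all siNT samples, with 0 called in either (59.3% and 62.2% of all genes).

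The spread between samples of the same group set these messengers apart from nearly all other genes. The SD of log2 CPM within groups, pooled over both, was 0.62 for MT-ND5, 0.66 for MT-ND4 and 0.71 for MT-ND1. It was 0.81 for MT-CO3 and 0.91 for MT-ND3, and the median of the 10 was 0.76. Over 9627 tested genes that averaged 10 CPM or more the median was 0.11. Outside the mitochondrial genome only 7 of these genes had an SD above that of MT-ND5, and 2 of the 7 were nuclear copies of mitochondrial genes, MTND2P28 and MTATP6P1. The messengers also moved together: over the 45 pairs, Pearson's r of log2 CPM after centring each group lay between 0.956 (MT-ND5 with MT-CO2) and 0.997 (MT-ND4 with MT-CO2), over 12 samples that share the same libraries.

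**Figure D3:**
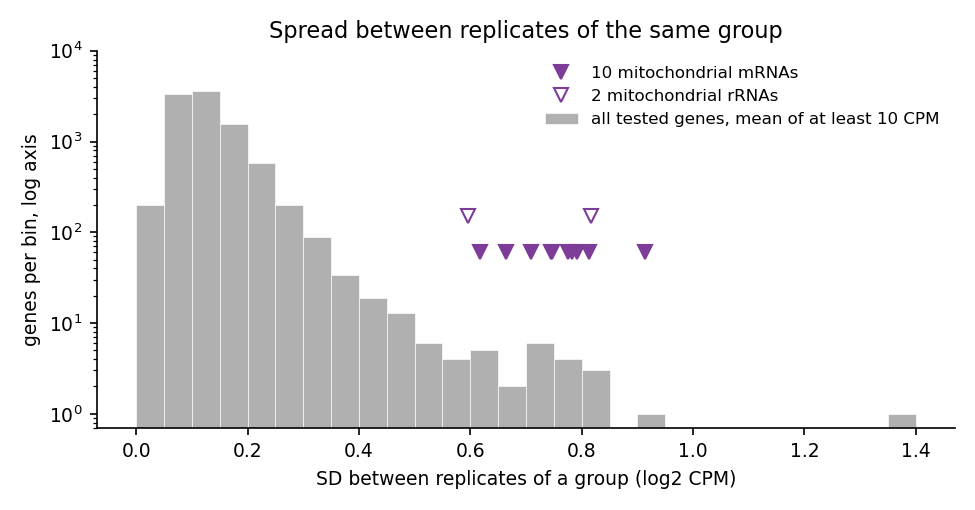
Number of genes (log y axis) by the SD of log2 CPM between replicates of a group (x axis) for tested genes that averaged 10 CPM or more; triangles place the 10 mitochondrial messengers (filled) and the 2 mitochondrial ribosomal RNAs (open) on the x axis only, and these genes are also counted in the bars. The messengers lie from 0.62 to 0.91, beside a median of 0.11 for all genes.

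The composition of the messenger pool was far steadier than its size. Of the reads on the 10 genes, MT-ND4 took 26.6 ± 1.81% after siCHKA and 26.4 ± 1.65% after siNT (SD, n = 6). MT-CO1 took 19.8 ± 1.80% and 18.8 ± 0.992%, and MT-CO3 12.4 ± 0.765% and 12.6 ± 0.989%. MT-ND3, the shortest, took 1.58 ± 0.179% and 1.45 ± 0.255%. While the share of the pool in gene reads differed 4.98-fold between siNT samples, the share of MT-ND4 within the pool lay between 24.4 and 28.2% in the same samples. Its lowest value, 23.0%, was that of siCHKA replicate 5.

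The mean shares of MT-ND5, MT-CYB, MT-CO3 and MT-ATP6 were smaller after siCHKA, and on the log2 scale the differences of MT-ND5 (−0.25) and MT-CYB (−0.16) were the largest of the 10. MT-ND5 took between 5.46 and 7.16% of the pool in siCHKA (mean 6.35 ± 0.560%) and between 6.20 and 8.57% in siNT (mean 7.57 ± 1.02%). MT-CYB took between 7.28 and 9.27% (mean 8.29 ± 0.652%) and between 7.90 and 10.5% (mean 9.28 ± 0.862%). The groups overlapped in both. Exact two-sided permutation tests of the log2 share gave unadjusted p = 0.0325 for MT-ND5 and p = 0.0519 for MT-CYB, and from 0.0844 to 0.885 for the other 8 genes; 10 such shares were compared, they sum to the same whole, and the p-values were not adjusted. In a fit across all genes with counts scaled to the summed 10 messengers, 0 of the 10 were called, beside 4.56% of all genes, and reads relative to the 10 did not overlap between groups in 1.02% of all genes and in 0 of the 10. On that scale MT-ND5 had a log2 fold change of −0.25 (95% interval −1.05 to 0.54, adjusted p = 0.939 in edgeR) and MT-ND3 of 0.13 (interval −0.69 to 0.95, adjusted p = 0.985). The spread of this fit is set by all genes, most of them nuclear and scattered by the pool itself, so its intervals are wider than the scatter of the shares.

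Levels of different genes can be compared only per length. In CPM per kilobase of gene, the mean siNT level was highest for MT-ND4 (1886 ± 1209; SD, n = 6), followed by MT-CO3 (1678 ± 1250.4), MT-CO1 (1249.8 ± 903) and MT-CO2 (1224 ± 919). MT-ATP6 was at 861 ± 625, MT-CYB at 814 ± 567 and MT-ND1 at 556 ± 384. MT-ND2 (489 ± 348), MT-ND3 (464 ± 416) and MT-ND5 (391 ± 213) were lowest. The order of the means was the same in siCHKA, from MT-ND4 (1645 ± 528) to MT-ND5 (305 ± 130.1). Since the samples moved together, neighbours in this order were compared within each sample. MT-CO3 exceeded MT-CO1 in 6 of 6 samples of both groups, by 0.40 ± 0.08 (siNT) and 0.30 ± 0.06 (siCHKA) on the log2 scale. MT-CO1 and MT-CO2 did not differ beyond their spread (0.06 ± 0.18 in siNT, 4 of 6 samples in that order), nor did MT-ND3 and MT-ND5 in siNT (0.00 ± 0.43). MT-ATP6 and MT-CYB did not differ beyond their spread by length in siNT (0.04 ± 0.13) but did in siCHKA (0.18 ± 0.09, 6 of 6 samples). Per base not shared with a neighbouring gene, MT-ATP6 exceeded MT-CYB in 6 of 6 samples of both groups (0.15 ± 0.13 in siNT, 0.29 ± 0.09 in siCHKA). MT-ND2 and MT-ND3 were also not separated in either group (0.21 ± 0.23 in siNT).

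The order depended on the part of each gene that reads can be assigned to. Levels were also divided by the number of 40-base windows without an exact nuclear copy in GRCh38, instead of by length. By this measure the siNT means were highest for MT-CO1 (3169.6) and MT-CO3 (2860.3), and MT-CO2 (2164) and MT-ND4 (2161) came next. MT-CO1 then exceeded MT-CO3 in 6 of 6 samples of both groups. MT-ND3 (526) and MT-ND5 (437) were the lowest on this scale too. The ratio of the highest to the lowest gene in a sample averaged 5.41 by length and 7.95 by unique windows.

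The 3 other messengers of the mitochondrial genome had r of 0.966 to 0.994 with the summed 10 over the same 12 samples, centred by group. MT-ND6, the only messenger made from the opposite strand, was at 77.3, 101 and 222 CPM (lowest, median, highest) in siCHKA and at 90.2, 146 and 308 CPM in siNT. Its log2 fold change was −0.49 (SE 0.29, interval −1.10 to 0.11, adjusted p = 0.147 in edgeR). In 3 of 22 alternatives it was called lower: without siCHKA replicate 5 (log2 fold change −0.77, adjusted p = 0.0128 in edgeR), with siCHKA replicates 2, 4 and 6 only (−0.83, adjusted p = 0.0265) and without the expression filter (−0.52, adjusted p = 0.0160). Without siNT replicate 3 it was at −0.21 (adjusted p = 0.479 in edgeR). With siCHKA replicates 1, 3 and 5 only it was at −0.22 (adjusted p = 0.588 in edgeR). Whether reads were counted by strand is not given in the sources used here, so RNA from the opposite strand at this place cannot be told apart. MT-ND4L and MT-ATP8, which share RNAs with MT-ND4 and MT-ATP6, had log2 fold changes of −0.19 and −0.21. The ribosomal RNAs MT-RNR1 and MT-RNR2, of the small and large mitochondrial ribosome subunits, had estimates above 0, at 0.10 (SE 0.28, adjusted p = 0.781 in edgeR) and 0.33 (SE 0.39, adjusted p = 0.487 in edgeR). Against 100 reads on the 10 messengers, the 2 rRNAs had 16.6 to 27.1 reads in siCHKA (mean 19.9 ± 3.85) and 11.4 to 23.3 in siNT (mean 16.04 ± 4.26), and the groups overlapped. The share of gene reads on the rRNAs was 0.442% in siCHKA replicate 5 and 0.295% in siNT replicate 3, the reverse of the order of the messengers in these samples. Of these 5 genes 0 were called with all samples, beside 62.2% of all genes tested. The 22 transfer RNA genes were not analysed here. After poly(A) selection rRNA reads are those with a tail, so this ratio is not one of whole rRNA to mRNA.

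Reads on the 4 nuclear copies that passed the expression filter rose and fell with the summed messengers within groups (r of 0.899 to 0.994). MTND2P28 (chromosome 1, 629640 to 630683), a copy of MT-ND2, ran from 17.1 to 40.1 CPM in siCHKA and from 10.5 to 55.5 CPM in siNT. MTATP6P1 ran from 22.3 to 67.3 CPM and from 19.0 to 84.7 CPM. MTCO1P12 reached at most 12.9 CPM, in siCHKA, although the share of windows with an exact nuclear copy was highest for MT-CO1. The log2 fold changes were −0.12 for MTND2P28 and −0.19 for MTATP6P1. They were 0.14 for MTCO1P12 and 0.33 for MTND4P12, while MT-CO1 (−0.13) and MT-ND4 (−0.20) had estimates below 0. Of 10 copies in the files 4 were tested and 0 were called, beside 62.2% of all genes tested. Whether their reads came from nuclear or mitochondrial RNA was not tested.

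The genes most like the summed messengers over the 12 samples, after centring each group, began with these copies. Over 9612 genes outside the mitochondrial genome that averaged 10 CPM or more, r was highest for MTND2P28 (0.994) and MTATP6P1 (0.988). PRADC1 (0.955), TRAPPC5 (0.941) and CINP (0.941) came next, and the median of all genes was 0.00. In all, 10 genes had r above 0.9 and 5 had r below −0.9, with the lowest at −0.932. The samples share libraries and total depth, and 9612 genes were compared. PRADC1 did not follow the messengers between the groups: it ran from 13.4 to 16.9 CPM in siCHKA and from 20.3 to 30.1 CPM in siNT and was called lower (log2 fold change −0.75, adjusted p = 2.53e-06 in edgeR). TRAPPC5, a subunit of the TRAPP tethering complexes, was called higher (0.54, adjusted p = 4.14e-06 in edgeR), as was CINP (0.32, adjusted p = 9.43e-04 in edgeR). Likeness within groups thus went with calls in both directions.

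The nuclear genes whose proteins act on mitochondrial DNA and RNA were measured far more tightly. Over the 9 lists described next, 67 of 130 tested genes (51.5%) were called, beside 62.2% of all genes tested, so calls were not in excess in these lists. With scaling by total gene reads the shares were 66.9% and 66.6%. That scaling moved all genes alike, to 20.7% lower and 45.9% higher from 30.1% and 32.1%, and the list counts given for it below carry this common shift. TFAM, which packs mitochondrial DNA and is needed to start its transcription, had the largest change of the transcription list. It lay at 53.8, 63.2 and 72.6 CPM (lowest, median, highest) in siCHKA and at 181, 191 and 201 CPM in siNT. The groups were far apart: its log2 fold change was −1.58 (SE 0.08, adjusted p = 1.15e-11 in edgeR). Of 9 transcription genes tested, 1 was lower and 7 were higher, with a median log2 fold change of 0.20. MTERF3, named after its value was seen, did not pass the test (−0.03, adjusted p = 0.773 in edgeR). MTERF1, which binds a terminator site after the rRNA genes, rose by 0.76 on the log2 scale (77.0 ± 5.23 CPM in siCHKA, adjusted p = 6.34e-09 in edgeR). MTERF2 rose by 0.43 and TFB1M, an rRNA methyltransferase, by 0.34. POLRMT, the mitochondrial RNA polymerase, rose by 0.20 (adjusted p = 0.00618 in edgeR; chosen for its role after its value was seen). With scaling by total gene reads the list again had 1 lower and 7 higher.

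**Figure D4:**
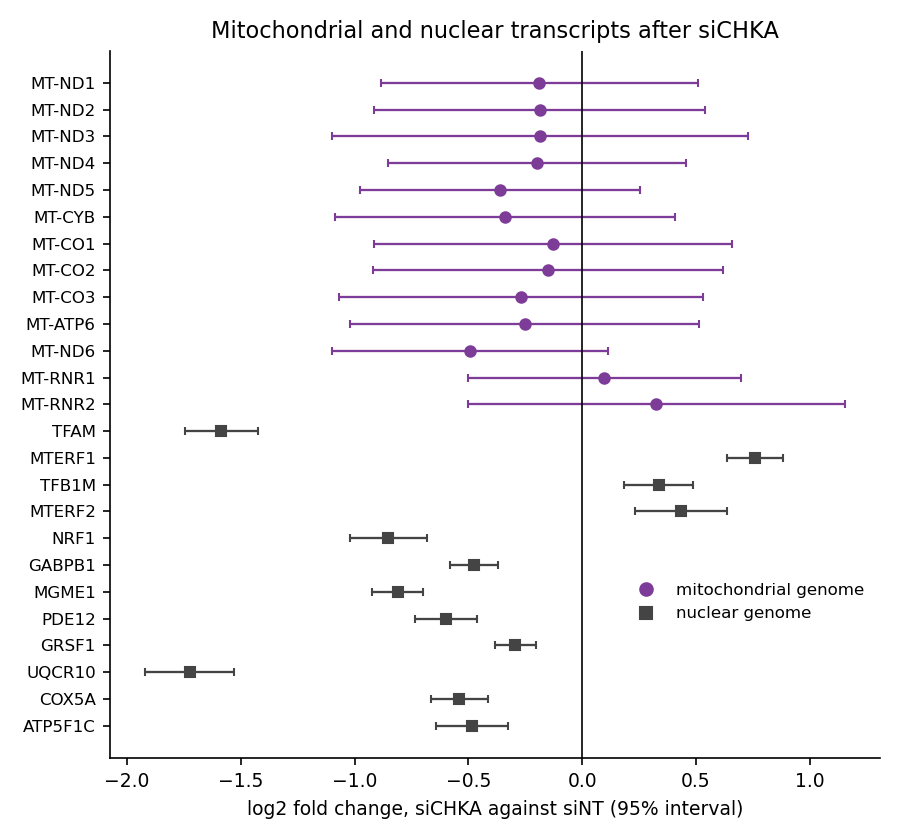
Log2 fold change of siCHKA against siNT (x axis) with 95% intervals for 13 genes of the mitochondrial genome (circles) and 12 nuclear genes named in the text (squares). With TMM scaling the mitochondrial messengers lie between −0.49 and −0.13 with intervals that include 0 (MT-CO1 is at 0.02 when scaled by total gene reads), while TFAM (−1.58) and UQCR10 (−1.72) lie far below 0 with short intervals.

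Genes that keep up mitochondrial DNA changed in both directions, with 4 of 11 lower and 3 higher, beside 30.1% and 32.1% of all genes. The share called, 63.6%, was near the 62.2% of all genes. With scaling by total gene reads 4 were lower and 7 higher, beside 20.7% and 45.9% of all genes. MGME1, a nuclease that trims mitochondrial DNA during replication, was at 35.0 ± 1.58 CPM in siCHKA and fell by 0.81 on the log2 scale (adjusted p = 6.54e-10 in edgeR). RNASEH1, which removes RNA primers, fell by 0.50 and TWNK, the replicative helicase, by 0.32. TOP1MT, the mitochondrial topoisomerase, rose by 0.39.

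Among genes that cut, tail, stabilize or degrade mitochondrial RNA, 6 of 19 were lower and 3 higher, beside 30.1% and 32.1% of all genes. With scaling by total gene reads 2 were lower and 7 higher, beside 20.7% and 45.9% of all genes. PDE12, which removes poly(A) tails in mitochondria, fell by 0.60 on the log2 scale (adjusted p = 3.87e-07 in edgeR) and GRSF1, an RNA granule protein, by 0.29. LRPPRC, which holds mitochondrial messengers stable and was chosen for this role after its value was seen, did not pass the test. Its mean was 528 CPM in siCHKA and 549 CPM in siNT, a log2 fold change of −0.06 (adjusted p = 0.290 in edgeR) that became 0.09 with scaling by total gene reads. ELAC2, which cuts at the 3′ end of transfer RNAs, rose by 0.18, a call lost without the expression filter and with siCHKA replicates 2, 4 and 6 only.

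Of 7 nuclear regulators of genes for mitochondrial proteins, 5 were lower and 1 higher (5 and 2 with scaling by total gene reads), beside 30.1% and 32.1% of all genes, at a median log2 fold change of −0.47. NRF1, an activator of many nuclear genes for mitochondrial proteins, fell by 0.85 on the log2 scale (12.5 ± 1.29 CPM in siCHKA, adjusted p = 7.28e-08 in edgeR). GABPB1, a subunit of the activator NRF-2, fell by 0.47 and the coactivator PPRC1 by 0.52. ESRRA, an orphan nuclear receptor, rose by 0.22. Of 11 factors for mitochondrial translation, 3 were lower and 4 higher (1 and 6 with scaling by total gene reads). MTIF3, an initiation factor, rose by 0.48 and MRRF, which recycles ribosomes, fell by 0.39.

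The nuclear partners of the 10 proteins are given by respiratory complex, and each count stands beside 30.1% of all genes called lower and 32.1% higher. Of 36 nuclear complex I genes 4 were lower and 16 higher, with a median log2 fold change of 0.14. With scaling by total gene reads 0 were lower and 27 higher, beside 20.7% and 45.9% of all genes. In complex III, 1 of 9 was lower and 2 were higher (1 and 4 by total gene reads). UQCR10, a small subunit of complex III, had the largest change of these lists, with 51.9 ± 6.79 CPM in siCHKA and 172 CPM in siNT (log2 fold change −1.72, SE 0.09, adjusted p = 5.83e-11 in edgeR). In complex IV, 1 of 11 was lower and 2 were higher (1 and 5 by total gene reads), with the small subunit COX5A at a log2 fold change of −0.54 (adjusted p = 4.90e-07 in edgeR). Of 17 ATP synthase genes 2 were lower and 2 higher (1 and 6 by total gene reads), with ATP5F1C, the central shaft, at a log2 fold change of −0.48. The nuclear subunits varied far less than the mitochondrial messengers: the summed nuclear complex I genes ran from 4634 to 4974 CPM in siCHKA and from 4089 to 4921 CPM in siNT. Within groups their r with the summed messengers had a median of 0.52 over the 36 genes, beside 0.00 over all genes, over the same 12 libraries. This was not particular to complex I: the median was 0.52 for complex III, 0.38 for complex IV and 0.55 for ATP synthase genes.

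Technical measures of the samples were set beside the share of reads on the 10 messengers. Over the 12 samples its log2 value had r = −0.16 with gene reads (rho = −0.24, permutation p = 0.628 and 0.460, adjusted 0.881 and 0.690) and r = −0.05 with the share of reads on no gene feature (rho = −0.03, permutation p = 0.881 and 0.940, the same after adjustment). With the share of alignments that were not unique it had r = 0.60 (permutation p = 0.0397, 0.119 adjusted over the 3 relations) and rho = 0.57 (p = 0.056, adjusted 0.168). Without siNT replicate 3 and siCHKA replicate 5, the samples farthest from the median share of messenger reads, r was 0.60. Reads from messenger windows with an exact nuclear copy enter the non-unique alignments themselves, so this relation is partly built in. Within groups r was 0.93 in siNT (exact permutation p = 0.0111) and 0.07 in siCHKA (exact permutation p = 0.907), so the pooled relation did not hold within siCHKA. Within siCHKA the share had r = −0.94 with gene reads (exact permutation p = 0.0444), where replicate 5 had both the fewest gene reads and the highest share, and rho was −0.71 (exact permutation p = 0.136). Within siNT the share had r = 0.08 with gene reads (exact permutation p = 0.904) and rho = 0.09 (exact permutation p = 0.919). The p-values within groups were not adjusted. The part of these measures in the spread was not tested.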

How the data were processed

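RNA from 12 samples of C4-2 cells was sequenced, 6 after siCHKA and 6 after siNT, grouped by the sample labels. Per the labels, TopHat 2.0.4 aligned the reads (GRCh37) and HTSeq 0.5.3p9 counted them. The authors deposited raw counts per gene, 4 files for each sample. The methods name Ensembl release 64. The labels name total RNA from flow-sorted cells, the study's methods another extraction kit. Reads with several alignments were not counted, which lowers genes with nuclear copies.

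These files were summed. Names came by Ensembl identifier through GENCODE 44 (82.8% of 54127 matched), whose GRCh38 coordinates are printed. The main test was edgeR's quasi-likelihood test (version 4.0.16, R 4.3.3), after filterByExpr and TMM, of siCHKA against siNT with no covariate, with Benjamini-Hochberg adjustment over 14501 genes and calls at 0.05. CPM are relative to TMM library sizes, and log2 CPM used a prior count of 2. A second fit set library size to the summed 10 messengers. Nuclear copies were found with BLAST 2.17.0 in 40-base windows. At these depths 3 counts equal 0.124 to 0.281 CPM. The fits were also run on simulated counts in which 200 of 14382 genes changed 2-fold and each gene varied independently. The main fit recovered 89.5% of the 200 and called 8 other genes. For the second fit the reference was the 10 most abundant genes. Neither the shared spread of the messengers nor as large a share of changed genes as was called here was simulated, so the simulation does not cover these.

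The genes and lists were chosen with earlier results of these data known. The text names all mitochondrial mRNAs and rRNAs, CHKA, at most 3 called genes per direction and list with the smallest p, and the 5 genes most like the summed messengers; some genes of these lists are not reported here. Alternatives were RLE scaling, scaling by nuclear genes or total gene reads, DESeq2 1.42.0, other filters, a replicate block, either set of siCHKA samples, 1 count file per sample, other shares and lengths, and each sample left out.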

Additional observations from a re-analysis of the deposited data

Results flagged for a closer look

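In groups of 6 samples, a value was marked when its gap to the next sample, divided by the range of the group, was above Dixon's 95% critical value for that number. Of 54 groups of values examined 17 were marked, where chance marks about 1 in 20, and all 17 concern siCHKA replicate 5; since the mitochondrial genes rose and fell together these are not 17 separate observations. The share of gene reads on the 10 messengers was 1.63% in that sample, with the next at 0.864%. Its levels were the highest of the group for MT-ND1 (757 CPM, next 468), MT-ND2 (767 CPM), MT-ND3 (293 CPM), MT-ND4 (3679.8 CPM) and MT-ND5 (1026 CPM). The same held for MT-CYB (1480.4 CPM, next 648), MT-CO1 (3573 CPM), MT-CO2 (1332 CPM), MT-CO3 (2124 CPM) and MT-ATP6 (940.1 CPM). Outside the 10 it was marked for MT-ND4L (415 CPM), MT-ND6 (222 CPM), MT-ATP8 (185 CPM), MT-RNR1 (799.5 CPM) and MT-RNR2 (3528 CPM, next 1165). MT-RNR2 had the widest gap of all, 0.887 of the range. In composition the sample was marked for MT-ND4, which took 23.0% of the pool, the lowest of the group. Replicate 5 was the siCHKA sample with the fewest gene reads, 12158361, and its CHKA level, 2.34 CPM, lay within those of the other siCHKA samples. The siNT samples were spread evenly enough that none was marked, although siNT replicate 3 was the highest of all 12.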

How the results depend on the processing

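The 10 messengers were called in 0 of 10 cases under each of the 10 alternatives other than leaving out single samples, and in 0 to 1 cases when single samples were left out (MT-ND5 without siCHKA replicate 5). Of all genes tested, 62.1% were called with RLE scaling, 62.2% with scaling by nuclear genes, 66.6% by total gene reads and 61.6% in DESeq2. The share was 59.3% with siCHKA replicates 1, 3 and 5 only and 62.2% with replicates 2, 4 and 6 only. Over 220 alternative values of the messengers' log2 fold changes, 198 kept their direction and their side of the threshold, 21 changed direction and 1 passed the threshold. By total gene reads MT-CO1 was at 0.021. With siCHKA replicates 1, 3 and 5 only, the values above 0 were 0.11 for MT-ND3, 0.21 for MT-CO1, 0.067 for MT-CO2, 0.035 for MT-CO3 and 0.0066 for MT-ATP6, and MT-ATP8 was at 0.032. With siCHKA replicates 2, 4 and 6 only, the median of the 10 was −0.57 (−0.19 with all samples), MT-RNR1 was at −0.40 and MT-RNR2 at −0.27. The cause was not tested.

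Leaving out single samples gave the following lowest values, all without siCHKA replicate 5, and highest values, all without siNT replicate 3: median of the 10 −0.49 to 0.20, MT-ND1 −0.38 to 0.21, MT-ND2 −0.41 to 0.23, MT-ND3 −0.53 to 0.40, MT-ND4 −0.39 to 0.16, MT-CO1 −0.46 to 0.30, MT-CO2 −0.39 to 0.27, MT-CO3 −0.57 to 0.16, MT-CYB −0.66 to 0.094 and MT-ATP6 −0.54 to 0.18. MT-ND5 stayed below 0 throughout, from −0.63 to −0.06. Outside the 10, the values were −0.38 to 0.19 for MT-ND4L, −0.77 to −0.21 for MT-ND6, −0.46 to 0.27 for MT-ATP8, −0.22 to 0.35 for MT-RNR1 and −0.17 to 0.70 for MT-RNR2. The mean difference of the log2 share of gene reads (siCHKA minus siNT) was 0.11 and lay between −0.07 and 0.39.

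Relative to the summed 10 messengers 0 were called under all alternatives, beside 4.56% of all genes in that fit with all samples. The intervals of this fit are wider than the scatter of the shares, so the lack of calls does not show that the shares were equal. With siCHKA replicates 1, 3 and 5 only, MT-ND1 was at −0.082, MT-ND2 at −0.021, MT-ND4 at −0.043 and MT-CO3 at 0.036, and with replicates 2, 4 and 6 only MT-CO1 was at −0.041. Leaving out single samples moved MT-ND4 between −0.010 and 0.049. The ratio of the highest to the lowest gene per length was 7.95 by unique windows, a setting chosen after seeing the data, and 5.41 by length.

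Replicate numbers did not pair the samples: same-numbered samples correlated at −0.02 on average (−0.51 to 0.58, above 0.1 in 2 of 6 pairs), and 1 of 6 samples in each group correlated best with its own number. With the number as a block, 0 of the 10 were called, the median was −0.002, all genes called went from 9021 to 8764, and MT-ND1 (0.027), MT-ND2 (0.031), MT-ND3 (0.098), MT-CO1 (0.020), MT-CO2 (0.094) and MT-ATP8 (0.016) were above 0.

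CHKA was called lower under all 22 alternatives. The nuclear genes called in the 9 lists numbered 67 and lay between 53 and 87, and scaling by total gene reads changed 27 lower and 40 higher into 16 and 71, as it changed all genes from 4370 and 4651 into 3004 and 6659. LRPPRC, not called, was at 0.094 with that scaling. Changes well inside the intervals of the 10 messengers could not be detected with this spread between samples, whatever the depth.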
